A study of Homo sapiens with 14 samples.

Results

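The expression of 10 genes of the gastric and intestinal epithelium was followed in human cells that were being taken along the pancreatic lineage. The genes were the trefoil peptide genes TFF1, TFF2 and TFF3, the cell surface genes MUC13, GPA33 and CEACAM1, the galectin gene LGALS4, the villin gene VIL1, the claudin gene CLDN18 and the transcription factor gene CDX2. All 10 were found among the 60624 Ensembl identifiers listed for each library. They had been chosen with their differences between DMSO and I-BET151 and between ePP and ePP-β in view. Those differences are therefore given as a description, without a test.

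The 14 RNA sequencing libraries came from 1 human embryonic stem cell line, given as MEL1 in the labels and as MEL1 INS GFP/W in the study's methods, so all carried a GFP reporter in the insulin gene. They formed 9 groups. Undifferentiated cells (hPSC), definitive endoderm (DE), pancreatic progenitors made stepwise without expansion (PP2) and β-like cells derived directly from hPSCs (SC-β) had 1 library each, in batch 1. Expandable pancreatic progenitors (ePPs) at passage 9 (ePP-P9) and passage 21 (ePP-P21), and β-like cells made from ePPs (ePP-β), had 2 libraries each, in batch 2. Pancreatic progenitors that had received the solvent (DMSO) or 1 μM I-BET151, which blocks the BET bromodomain proteins, for 7 days had 2 libraries each, in batch 3. The ePPs were grown on feeder cells in a medium with EGF, bFGF, the TGFβ receptor inhibitor 616452 and I-BET151, so both ePP groups also carried the inhibitor. The labels do not say whether the libraries of a group came from separate cultures, and the p-values below therefore measure the spread between these libraries, which may be technical.

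The stomach, the intestine and the pancreas arise next to each other from the endoderm of the early gut tube. Trefoil peptides are secreted with mucus by the stomach (TFF1 and TFF2) and by intestinal goblet cells (TFF3). CDX2 sets the intestinal identity of the endoderm, and MUC13, GPA33, LGALS4 and VIL1 are surface and brush border genes that are typical of the intestinal epithelium.

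By the GENCODE annotation of GRCh38 the 10 genes are protein-coding. TFF3 (42311667 to 42315409), TFF2 (42346357 to 42350997) and TFF1 (42362282 to 42366535) lie on the minus strand of chromosome 21 within 54869 bases. MUC13 (124905442 to 124953819) and CLDN18 (137998735 to 138033655) are on chromosome 3, GPA33 (167052836 to 167166479) is on chromosome 1, and VIL1 (218419121 to 218453295) is on chromosome 2. LGALS4 (38801671 to 38812945) and CEACAM1 (42507304 to 42561234) are on chromosome 19, and CDX2 (27960918 to 27969315) is on chromosome 13.

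RefSeq promoter sequences of GRCh38.p14 were held for 6 of the 10 genes, MUC13, GPA33, CEACAM1, CDX2, CLDN18 and LGALS4, and not for TFF1, TFF2, TFF3 and VIL1. The 250 bases before the start were searched on both strands for the letters of 5 motifs, namely AGATAA for the zinc finger factors of the GATA family, CAAAGTCCA for the nuclear receptor HNF4, TGTTTAC for forkhead factors, TTTATG for caudal factors such as CDX2, and TATAAA for the general TATA element. The RefSeq starts used for MUC13, GPA33, CEACAM1 and CLDN18 lie inside the gene spans given above. The windows of MUC13 and CDX2 are shown as examples with a match. CLDN18 also held matches and is not shown. Those of GPA33 and CEACAM1 are shown because these 2 surface genes had the lowest levels in I-BET151 relative to DMSO among the genes with a window. Capitals mark the matches.
MUC13 (chr3:124934752-124935001, minus strand): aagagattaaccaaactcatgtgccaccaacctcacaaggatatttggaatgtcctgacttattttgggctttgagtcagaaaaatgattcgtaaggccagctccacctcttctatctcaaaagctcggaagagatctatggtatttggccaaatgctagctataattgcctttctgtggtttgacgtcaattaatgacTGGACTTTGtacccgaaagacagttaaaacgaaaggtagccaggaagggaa
CDX2 (chr13:27969316-27969565, minus strand): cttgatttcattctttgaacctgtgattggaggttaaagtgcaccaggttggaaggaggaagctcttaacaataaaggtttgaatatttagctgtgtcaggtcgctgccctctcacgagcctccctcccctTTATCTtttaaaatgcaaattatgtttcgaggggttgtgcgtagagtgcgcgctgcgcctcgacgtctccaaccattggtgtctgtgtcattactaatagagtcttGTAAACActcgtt
GPA33 (chr1:167090378-167090627, minus strand): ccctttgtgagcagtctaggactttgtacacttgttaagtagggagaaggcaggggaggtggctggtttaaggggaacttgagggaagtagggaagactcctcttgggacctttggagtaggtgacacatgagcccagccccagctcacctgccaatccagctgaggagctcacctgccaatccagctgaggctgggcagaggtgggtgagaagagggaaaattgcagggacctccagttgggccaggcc
CEACAM1 (chr19:42528482-42528731, minus strand): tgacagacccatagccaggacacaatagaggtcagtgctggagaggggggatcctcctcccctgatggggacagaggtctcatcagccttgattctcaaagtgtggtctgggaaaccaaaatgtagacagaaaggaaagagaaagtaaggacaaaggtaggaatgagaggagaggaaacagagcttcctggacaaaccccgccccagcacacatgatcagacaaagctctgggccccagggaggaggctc

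The MUC13 window held the HNF4 letters at -51 to -43 from the start, a match found in 0.325% of 35116 promoter windows of the same length. CDX2 held the GATA letters at -119 to -114, found in 9.17% of windows, and the forkhead letters at -13 to -7, found in 2.98%. The windows of GPA33, CEACAM1 and LGALS4 held none of the 5. CLDN18 has 2 RefSeq starts, and the upstream window held 2 GATA matches and 1 forkhead match while the downstream one held none. The caudal letters are present in 9.64% and the TATA letters in 10.7% of all windows, and in none of the 7 windows of these genes. A match describes the letters in these windows and is not evidence of binding.

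Values are given in TPM, which corrects a share of the library for transcript length and allows levels to be set side by side between genes. The TPM listed for a library added up to 908685 to 985497, and 14982 to 17578 genes reached 1 TPM. TPM keeps no read number, so depth is unknown and no counting interval is given. All 37 mitochondrial genes were listed at 0 in every library, so a 0 below is reported as listed. The 5 pancreatic progenitor markers PDX1, NKX6-1, SOX9, FOXA2 and MNX1 reached 1 TPM in all 4 DMSO and I-BET151 libraries and in both ePP-β libraries.

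**Figure D1:**
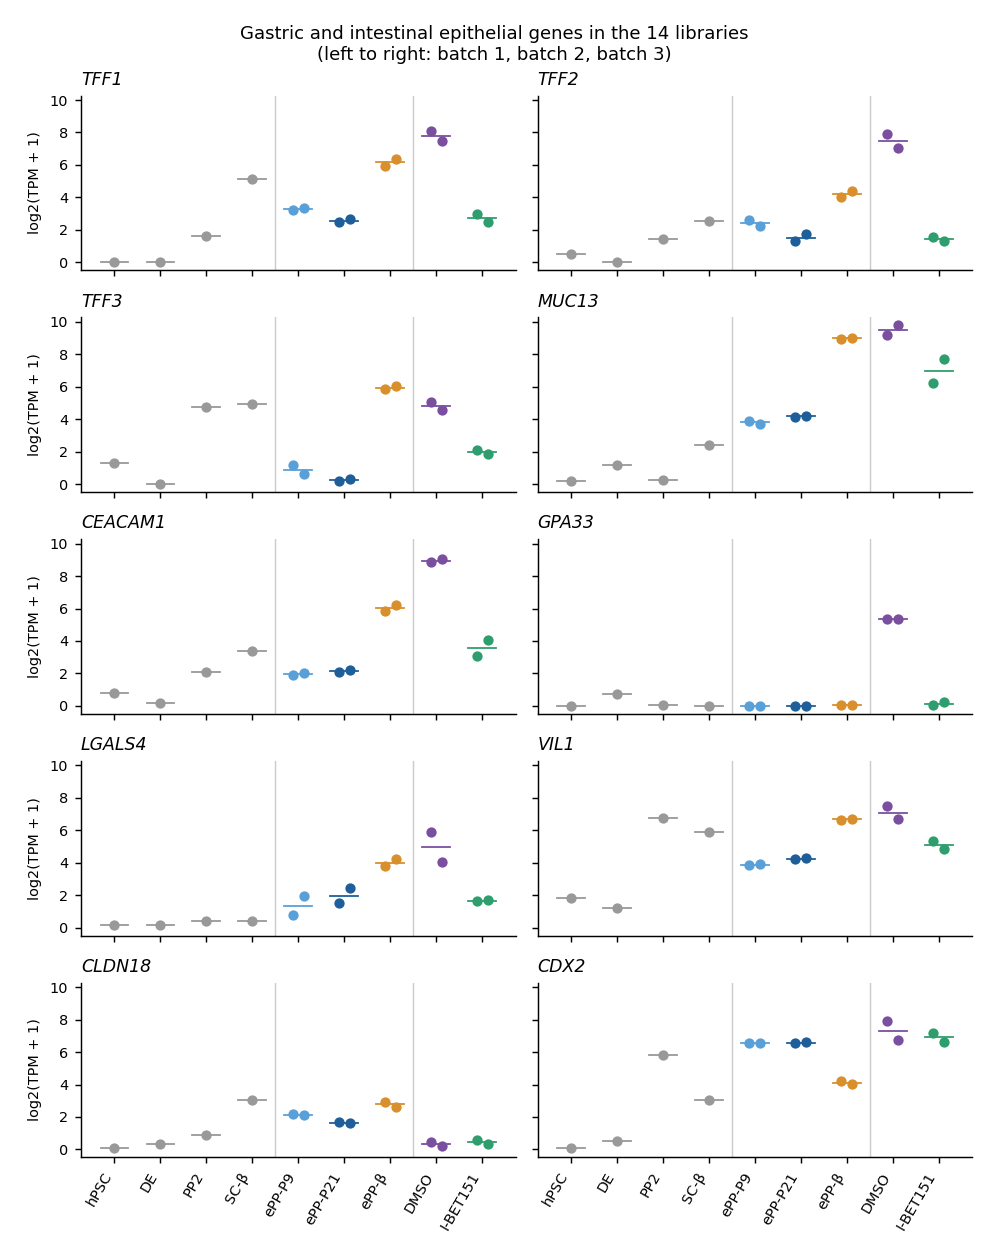
Level of each of the 10 genes as log2(TPM + 1) in the 14 libraries. Points are libraries, short lines are group means, and grey vertical lines separate batches 1, 2 and 3; for 8 genes (all but CDX2 and CLDN18) both DMSO libraries lie above both I-BET151 libraries.

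Along the single-library stages, most of the 10 genes were near 0 before the pancreatic stage. TFF1 was listed at 0 in both hPSC and DE, and reached 2.03 TPM in PP2 and 34.2 TPM in SC-β. TFF2 was at 0.428 TPM in hPSC, listed at 0 in DE, and at 1.68 and 4.91 TPM in PP2 and SC-β. TFF3 was at 1.49 TPM in hPSC, listed at 0 in DE, and at 26.0 and 29.2 TPM in PP2 and SC-β. PP2 thus held mainly TFF3 among the trefoil genes, whereas TFF1 and TFF3 stood at similar levels in SC-β. VIL1, which bundles actin in microvilli, went from 2.57 TPM in hPSC and 1.29 TPM in DE to 107 TPM in PP2 and 57.2 TPM in SC-β. CDX2 was at 0.0470 and 0.435 TPM in hPSC and DE, 55.5 TPM in PP2 and 7.33 TPM in SC-β. These 2 genes were the members with the highest level in PP2.

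The other genes stayed low at these stages. MUC13, a membrane mucin, was at 0.140, 1.27, 0.188 and 4.35 TPM in hPSC, DE, PP2 and SC-β. CEACAM1, an adhesion receptor of the carcinoembryonic antigen family, was at 0.724, 0.116, 3.23 and 9.58 TPM. LGALS4, a galectin that binds sugars of the brush border, was at 0.109, 0.104, 0.354 and 0.343 TPM. CLDN18, a tight junction gene with a lung form and a stomach form that gene-level values do not separate, was at 0.0569, 0.244, 0.852 and 7.36 TPM. GPA33, the A33 antigen of the intestinal epithelium, was at 0.648 TPM in DE and at 0.0182 TPM or less in the other 3. With 1 library per stage these differences have no replicate check, and against batches 2 and 3 stage and batch cannot be told apart.

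The DMSO and I-BET151 libraries were compared to ask what the BET inhibitor does to progenitors in 7 days. All 3 trefoil genes, MUC13, CEACAM1, GPA33, LGALS4 and VIL1 were lower in both I-BET151 libraries than in both DMSO libraries, CDX2 overlapped, and CLDN18 was under 1 TPM in all 4. In bulk RNA, fewer cells of a type and less RNA per cell cannot be told apart.

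TFF1 was at 277 and 176 TPM in DMSO against 6.89 and 4.59 TPM in I-BET151. TFF2 was at 234 and 132 TPM in DMSO against 1.91 and 1.44 TPM in I-BET151. TFF3 was at 31.9 and 22.5 TPM in DMSO against 3.23 and 2.70 TPM in I-BET151. The groups did not overlap for any of the 3. The mean of TFF2 was 109-fold higher in DMSO, with ratios of single libraries from 69.0 to 163. The corresponding ratio was 39.4 for TFF1 and 9.17 for TFF3. On the log2(TPM + 1) scale, which compresses the differences of genes near 0, the difference was -6.05 (SE 0.40) for TFF2, -5.06 (SE 0.39) for TFF1 and -2.81 (SE 0.34) for TFF3.

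The make-up of the trefoil transcripts differed as well. TFF3 made up 5.87% and 6.82% of the summed trefoil TPM in DMSO and 26.9% and 30.9% in I-BET151, and TFF2 made up 43.2% and 40.0% against 15.9% and 16.5%. The share of TFF1 lay between 51.0% and 57.2% in all 4 libraries. The sum of the 3 genes was 543 and 330 TPM in DMSO against 12.0 and 8.73 TPM in I-BET151. Of the other protein-coding genes within 100000 bases of this gene cluster, named here after their values were seen, TMPRSS3 was at 1.17 and 2.21 TPM in DMSO against 0.0868 and 0.860 TPM in I-BET151, while ABCG1 and UBASH3A were at 0.0818 TPM or less in all 4.

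**Figure D2:**
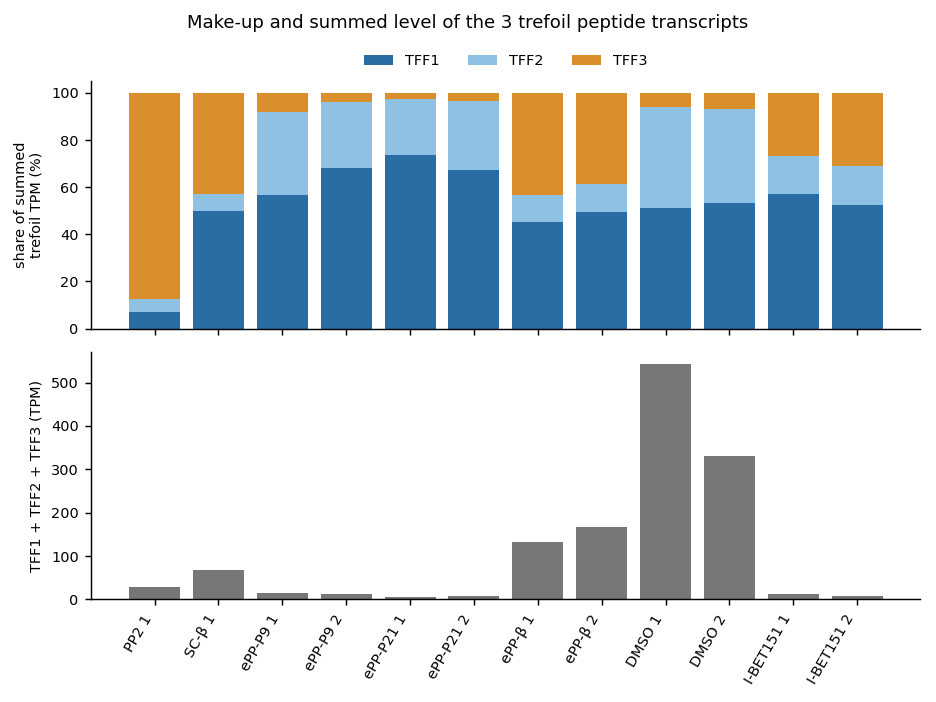
Share of TFF1, TFF2 and TFF3 in their summed TPM (upper panel, percent) and that sum (lower panel, TPM) in 12 libraries; hPSC and DE, with a sum of 1.92 and 0 TPM, are not drawn. TFF3 takes 87.5% in PP2, 2.70% to 8.19% in the ePPs and 38.5% to 43.4% in ePP-β.

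Among the surface genes, CEACAM1 was at 462 and 524 TPM in DMSO against 7.58 and 15.8 TPM in I-BET151, a difference of -5.36 (SE 0.42) on the log2 scale. GPA33 was at 40.6 and 39.6 TPM in DMSO against 0.0408 and 0.165 TPM in I-BET151. Outside DMSO no library exceeded the 0.648 TPM of DE. Its log2 difference of -5.22 (SE 0.30) depends on the pseudocount and was -7.70 with a pseudocount of 0.1. MUC13 was at 582 and 880 TPM in DMSO against 72.6 and 205 TPM in I-BET151. The I-BET151 libraries thus still held more MUC13 than any ePP library. Its log2 difference was -2.54 (SE 0.58), with a 5.26-fold ratio of the means.

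LGALS4 was at 57.6 and 15.6 TPM in DMSO against 2.08 and 2.30 TPM in I-BET151, and its log2 difference was -3.29 (SE 0.64). The DMSO libraries differed from each other 3.69-fold, the widest gap of a member within this group. VIL1 was at 177 and 101 TPM in DMSO against 38.9 and 28.1 TPM in I-BET151, and its log2 difference was -1.98 (SE 0.41). CDX2 was at 237 and 104 TPM in DMSO against 145 and 95.9 TPM in I-BET151. The groups overlapped, and the log2 difference of -0.41 (SE 0.51) was smaller than its error. Without DMSO replicate 1 it was 0.18. CLDN18 was at 0.360 and 0.160 TPM in DMSO against 0.479 and 0.245 TPM in I-BET151 and was not fitted.

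Of the 10 genes, 9 had at least 1 TPM in 2 of these 4 libraries and entered the fit, GPA33 through its DMSO libraries alone. For 8 of the 9 the I-BET151 libraries lay below both DMSO libraries with a log2 difference beyond 1, as they did for 9.09% of all 16687 fitted genes, while 5.33% of all genes were separate and higher. The median difference of all fitted genes was 0.16. Nothing is read from these counts, since the genes were chosen on this comparison. Ribosomal protein genes held 19.2% and 26.4% of the TPM in DMSO and 15.6% and 26.4% in I-BET151. This share differed more between the libraries of a group than between the group means, and its part in the differences was not tested.

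A wider list of 75 other gut epithelial genes was tested in the same libraries. This list and the lists below were chosen with earlier results of these data known. Their tests are therefore no independent support for the differences of the 10 genes. For genes other than the 10, the lower of the 2 library values of a group is given before the higher. Of these, 48 passed the filter, and 46 of them had a lower mean in I-BET151 (median log2 difference -2.15). With limma and Benjamini-Hochberg adjustment over all genes, 0 were called higher and 1 lower (adjusted p under 0.05 and a log2 difference beyond 1), while 35 had an unadjusted p under 0.05. Among all 16687 genes 0.00599% were called higher and 0.204% lower, and 15.2% had an unadjusted p under 0.05. With the replicate number as a block, 37 of the 48 genes were called lower, beside 1466 of all genes. No label ties same-numbered libraries to a shared culture, so the reported fit has no block. Of the 48 genes, 6 reached 1 TPM in DMSO alone and entered the fit through it. The called gene was AGR3, a secretory cell gene, which fell from 34.0 and 56.1 TPM to 0.658 and 1.34 TPM (log2 difference -4.50, SE 0.40, adjusted p = 0.0480). When a library was left out, the other library of its group was assumed to vary like the other group. The count of genes called lower was then 10 without DMSO replicate 1, 16 without DMSO replicate 2, 22 without I-BET151 replicate 1 and 34 without I-BET151 replicate 2.

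By list, all 25 fitted genes of the absorptive cells had negative differences (median -2.90), among them the fatty acid binding gene FABP1 (-2.77, SE 0.89, adjusted p = 0.247) and the cadherin gene CDH17 (-3.61, SE 0.67, adjusted p = 0.108). In 24 of the 25 the groups were separate with a difference beyond 1, as in 38 of all 48 listed genes fitted. Of all fitted genes, 9.09% were separate and lower with a difference beyond 1, and 15.2% had an unadjusted p under 0.05. Gastric genes were few, and CTSE, a protease of the gastric mucosa, was at 50.1 and 72.6 TPM in DMSO against 1.33 and 5.62 TPM in I-BET151 (adjusted p = 0.0787). The 9 transcription factor genes had a median of -0.98. 0 of them were called and 3 had an unadjusted p under 0.05. In 4 of the 9 the groups were separate with a difference beyond 1, among them ISX, at 47.3 and 62.1 TPM in DMSO against 16.6 and 17.0 TPM in I-BET151. ELF3 was also separate, at 40.7 and 53.3 TPM against 19.1 and 31.1 TPM. KLF5, at 138 and 194 TPM against 96.1 and 178 TPM, overlapped between the groups as CDX2 did.

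The relatives of the surface and galectin genes were compared next. Beside the counts below, 15.2% of all fitted genes had an unadjusted p under 0.05, 0.00599% were called higher and 0.204% lower. CEACAM5, CEACAM6 and CEACAM7 had log2 differences of -4.29, -3.64 and -4.66, and CEACAM19 of 0.12, with adjusted p between 0.0822 and 0.944. CEACAM7 averaged 0.275 TPM in I-BET151 and entered the fit through its DMSO libraries. Of 13 claudins 0 were called in either direction and 6 had an unadjusted p under 0.05. CLDN4 (-3.78) and CLDN7 (-2.30) lay below 0 and CLDN6 (0.74) above it. All 5 fitted galectins lay below 0, and 1 was called, LGALS14, at 136 and 347 TPM in DMSO against 2.79 and 2.87 TPM in I-BET151 (-5.83, SE 0.51, adjusted p = 0.0480). CEACAM and galectin genes have close copies, between which reads may be divided, so their single values are less certain. Of 12 general epithelial genes 10 lay below 0 (median -0.74), 0 were called and 5 had an unadjusted p under 0.05. The keratin genes KRT18 and KRT8 differed by 0.13 and -0.02, and EPCAM by -1.40 (adjusted p = 0.172).

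Markers of other cells were summed in the same libraries. The 11 hepatocyte genes summed to 11811 and 10452 TPM in DMSO and to 1525 and 3593 TPM in I-BET151. All 10 that were fitted lay below 0 and TTR was called lower (-4.26, adjusted p = 0.0480). The 7 acinar genes summed to 55.7 and 47.1 TPM against 10.3 and 15.6 TPM, and the 6 duct genes to 110 and 200 TPM against 31.8 and 94.3 TPM, with 0 genes of either list called. The mesenchyme sum went the other way, although 5 of its 8 fitted genes lay below 0. The 10 mesenchyme genes summed to 799 and 714 TPM in DMSO and to 871 and 1258 TPM in I-BET151. Most of it was VIM, at a mean of 613 TPM in DMSO and 1002 TPM in I-BET151. LUM was called lower (-3.37, adjusted p = 0.0480). It averaged 0.574 TPM in I-BET151 and entered the fit through its DMSO libraries. Endothelial genes summed to 4.63 TPM or less in all 4. Liver cells also express FABP1 and MTTP of the absorptive list, and enterocytes also express APOA1 of the hepatocyte list. The part of these cells in the differences was not tested.

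**Figure D3:**
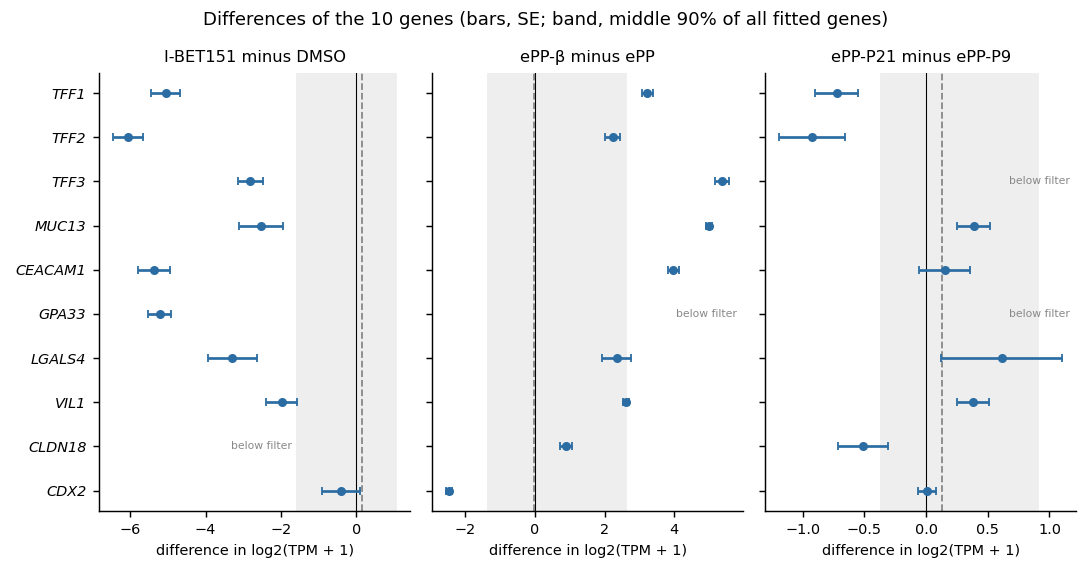
Difference of each gene in log2(TPM + 1) for I-BET151 minus DMSO, ePP-β minus ePP and ePP-P21 minus ePP-P9, with its SE. The grey band holds the middle 90% of all fitted genes, the dashed line is their median, and genes under 1 TPM in all but 1 library at most are marked as below filter; CDX2 differs by -0.41, -2.46 and 0.01.

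The next question was what happens to these genes when ePPs become β-like cells. The media that the study lists for this differentiation do not include I-BET151, whereas the ePPs were grown with it. Differentiation and loss of the inhibitor therefore cannot be told apart in this comparison. MUC13, CEACAM1, LGALS4, VIL1 and the 3 trefoil genes were higher in both ePP-β libraries than in all 4 ePP libraries, while CDX2 was lower. CLDN18 differed by less than 1 on the log2 scale, and GPA33 was at 0.0194 TPM or less in all 6 libraries.

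TFF3 was at 1.22 and 0.520 TPM in ePP-P9, at 0.167 and 0.259 TPM in ePP-P21 and at 57.4 and 64.5 TPM in ePP-β. TFF1 was at 8.44 and 9.18 TPM in ePP-P9, at 4.57 and 5.31 TPM in ePP-P21 and at 59.7 and 82.6 TPM in ePP-β. TFF2 was at 5.22 and 3.73 TPM, at 1.46 and 2.33 TPM, and at 15.0 and 20.3 TPM in the same order. The log2 differences of TFF3, TFF1 and TFF2 were 5.37 (SE 0.20), 3.22 (SE 0.16) and 2.23 (SE 0.23). TFF3 thus went from 2.70% to 8.19% of the trefoil sum in the ePPs to 43.4% and 38.5% in ePP-β, beside 42.8% in SC-β. TFF3 was the trefoil gene with the largest difference here and the one with the smallest difference between DMSO and I-BET151.

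MUC13 was at 13.6 and 12.2 TPM in ePP-P9, at 16.9 and 17.5 TPM in ePP-P21 and at 496 and 521 TPM in ePP-β. This is a 33.8-fold ratio of the means, and a log2 difference of 5.00 (SE 0.08). The single SC-β library, in another batch, held 4.35 TPM of MUC13, below all 4 ePP libraries. CEACAM1 was at 2.71 and 3.14 TPM in ePP-P9, at 3.16 and 3.54 TPM in ePP-P21 and at 56.0 and 73.2 TPM in ePP-β, a log2 difference of 3.98 (SE 0.16). LGALS4 was at 0.708 and 2.86 TPM, at 1.89 and 4.35 TPM, and at 13.0 and 17.6 TPM in the same order, a log2 difference of 2.35 (SE 0.41). VIL1 was at 13.6 and 13.9 TPM, at 17.5 and 18.9 TPM, and at 99.5 and 104 TPM, a log2 difference of 2.61 (SE 0.08). All 4 genes kept the ePP and ePP-β libraries apart.

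CDX2 went the other way. It was at 95.0 and 94.2 TPM in ePP-P9, at 94.6 and 95.4 TPM in ePP-P21 and at 17.4 and 15.3 TPM in ePP-β, a log2 difference of -2.46 (SE 0.08). CLDN18 was at 3.52 and 3.37 TPM, at 2.17 and 2.06 TPM, and at 6.73 and 5.21 TPM, a log2 difference of 0.90 (SE 0.17) that quantile normalization brought to 0.53. For 7 of the 9 fitted genes ePP-β was higher with all libraries separate and a difference beyond 1, and for 1 it was lower, against 17.9% and 9.78% of all 18076 fitted genes. The genes were chosen on this comparison too, and nothing is read from the counts. The median difference of all genes was -0.03, and quantile normalization moved it to -0.19.

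The wider gut list was tested between ePP and ePP-β, with the same limit from how it was chosen. Of its 75 genes 50 passed the filter, and 35 were called higher and 4 lower with limma, against 17.9% higher and 9.86% lower among all genes tested. Of the 50 genes, 16 reached 1 TPM in ePP-β alone. They entered the fit because they were high there, and 14 of them were among the 35. A further 1 reached 1 TPM in the ePPs alone. Of the remaining 33 genes 21 were called higher and 4 lower, beside 10.9% and 10.1% of all genes that remained after the same step. Quantile normalization gave 32 higher and 6 lower in the list, and moved all genes from 3237 higher and 1783 lower to 2592 and 2866. All 25 fitted absorptive cell genes had positive differences and 22 were called higher, 9 of them at 1 TPM in ePP-β alone. APOA4 rose from between 0.259 and 0.755 TPM in the ePPs to 409 and 511 TPM (log2 difference 8.20, adjusted p = 3.67e-06). MEP1B, a brush border protease gene, rose to 79.3 and 135 TPM from 0.0336 TPM or less (6.68, adjusted p = 1.19e-05). APOA4 and MEP1B are among the 9 genes at 1 TPM in ePP-β alone and entered the fit because they were high there. FABP1 rose by 2.22, and MTTP, at 0.19, was not called (adjusted p = 0.0545). Without ePP-β replicate 1 the list had 20 genes called higher of 34 fitted, and without ePP-β replicate 2 it had 21 of 34.

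Of the 9 fitted secretory and crypt genes 7 were called higher, 4 of them at 1 TPM in ePP-β alone, and 2 lower. PIGR, the polymeric immunoglobulin receptor, rose from 0.113 TPM or less to 49.5 and 50.5 TPM (5.54, adjusted p = 5.42e-06), and SPINK1 (4.33) and ASCL2 (2.95) rose as well. PIGR and ASCL2 are among the 4 genes that entered the fit because they were high in ePP-β. The crypt gene OLFM4 fell (-1.84, adjusted p = 3.68e-05), and AGR2 fell (-1.42, adjusted p = 7.26e-05). Of the 7 fitted gastric genes 3 were called higher and 1 lower, beside 17.9% and 9.86% of all fitted genes. PSCA (5.00, adjusted p = 1.01e-05), CTSE (1.67, adjusted p = 0.000488) and ANXA10 (1.225, adjusted p = 0.00145) rose, and VSIG1 fell (-2.29, adjusted p = 0.000353). PSCA averaged 0.0705 TPM in the ePPs and entered the fit because it was high in ePP-β. Among the transcription factor genes SOX2 and HNF4G were called higher, and KLF5 fell from between 165 and 233 TPM to 26.1 and 26.2 TPM (-2.80, adjusted p = 1.16e-05). CDX2 and KLF5 thus were lower while most absorptive genes were higher.

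**Figure D4:**
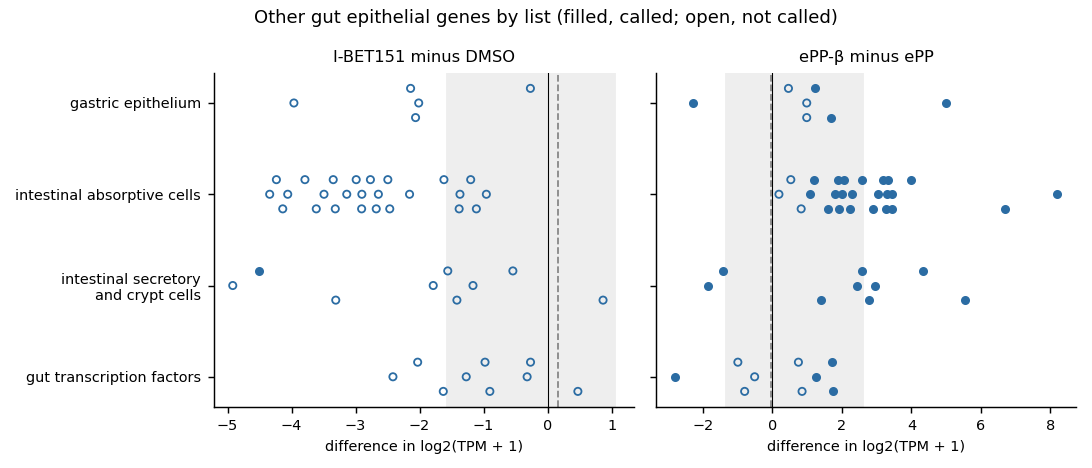
Difference in log2(TPM + 1) of the other gut epithelial genes in 4 lists, for I-BET151 minus DMSO and ePP-β minus ePP. Each circle is a gene, filled where it was called, and the grey band and dashed line are the middle 90% and the median of all fitted genes; in the left panel 46 of 48 circles lie below 0, in the right panel 43 of 50 lie above it.

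The relatives of these genes were compared in ePP-β too. Among all fitted genes 17.9% were called higher and 9.86% lower, the shares to set beside each count below. CEACAM7 (3.95), CEACAM5 (3.11) and CEACAM6 (1.22) were called higher in ePP-β and CEACAM19 (-1.03) lower. CEACAM7 and CEACAM5 averaged 0.162 and 0.528 TPM in the ePPs and entered the fit because they were high in ePP-β. Of 6 fitted galectins 5 were called higher and LGALS3 (-2.02) lower, of 12 claudins 5 were called higher and 1 lower, and GSN of the villin and gelsolin family was called lower (-1.49). LGALS9 and CLDN5, both called higher, averaged 0.146 and 0.313 TPM in the ePPs and would not have passed the filter there. KRT8 (-2.45) and KRT18 (-1.71) fell while CDH1 (1.02) rose, so general epithelial genes did not share 1 direction. All 9 fitted hepatocyte genes were called higher, from a summed 278 to 323 TPM in the ePPs to 17299 and 19953 TPM in ePP-β. Of that sum TTR, which islet cells also express, took a mean of 14290 TPM, and ALB was at a mean of 48.5 TPM. All 8 endocrine genes were higher, from a summed 10.9 to 15.4 TPM to 42892 and 47720 TPM. In each ePP library only 2 or 3 of these 8 reached 1 TPM, so most of them entered the fit because they were high in ePP-β. INS and GCG, for example, averaged 0.00372 and 0 TPM in the ePPs. Acinar genes summed to 7.07 to 12.2 TPM and to 50.8 and 51.1 TPM, duct genes to 64.7 to 103 TPM and to 91.7 and 98.6 TPM, mesenchyme genes to 1398 to 1774 TPM and to 510 and 551 TPM, and endothelial genes to 0.203 TPM or less in ePP-β. Most of the mesenchyme sum was VIM, at a mean of 1509 TPM in the ePPs and 480 TPM in ePP-β. Of the 7 fitted mesenchyme genes 1 was called higher and 2 lower. The part of these shifts in the gut gene differences was not tested.

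Early and late passage ePPs were compared to ask whether the genes drift in culture. The choice of the 10 genes did not name this comparison, so they were tested, and 8 passed the filter. They had still been chosen with earlier results of these data known, so the test is not fully free of that choice. With limma 0 of the 8 were called in either direction, and 5 had an unadjusted p under 0.05, beside 1.07% of all 15822 genes called higher, 0.0569% lower and 23% with an unadjusted p under 0.05. Those 169 and 9 genes became 10 and 3 with quantile normalization and 0 and 0 with median centring. TFF1 and TFF2 were lower in both ePP-P21 libraries than in both ePP-P9 libraries, by 0.73 (SE 0.18, adjusted p = 0.0979) and 0.92 (SE 0.27, adjusted p = 0.129) on the log2 scale, and neither passed. CLDN18 differed by -0.51 (adjusted p = 0.215), MUC13 by 0.39 (adjusted p = 0.174), VIL1 by 0.38 (adjusted p = 0.165) and LGALS4 by 0.61 (adjusted p = 0.512).

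CDX2 was within 0.01 on this scale, and its 4 ePP libraries spanned 94.2 to 95.4 TPM. The median of all genes was 0.13 here and -0.07 after median centring. Relative to the median CDX2 stood at -0.12 and CEACAM1 at 0.02, and the direction of both turned with the scaling. TFF3 and GPA33 were not fitted. Of 33 other gut genes fitted, 0 were called and 9 had an unadjusted p under 0.05, a share near the 23% of all genes, and their median was 0.26.

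The order of the groups differed between the genes. TFF1, TFF2, MUC13, CEACAM1, GPA33, LGALS4, VIL1 and CDX2 had their highest mean in DMSO, TFF3 in ePP-β and CLDN18 in SC-β. For TFF1 and TFF2 the next groups were ePP-β and then SC-β, and for MUC13 and CEACAM1 ePP-β and then I-BET151. VIL1 in DMSO overlapped with PP2 and ePP-β, LGALS4 in DMSO overlapped with ePP-β, and CDX2 in DMSO overlapped with I-BET151. For TFF1 the I-BET151 and ePP-P21 libraries overlapped, at 4.59 to 6.89 TPM and 4.57 to 5.31 TPM, while ePP-P9 lay above them, at 8.44 to 9.18 TPM. For MUC13 the I-BET151 and ePP-P21 libraries did not overlap, at 72.6 to 205 TPM and 16.9 to 17.5 TPM. I-BET151 and ePP differ in batch and culture, which cannot be told apart.

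Over the 14 libraries the genes closest to each other in log2(TPM + 1) were TFF2 and CEACAM1 (Pearson r = 0.946), TFF1 and TFF2 (0.942) and TFF1 and CEACAM1 (0.932). TFF3 was nearer to VIL1 (0.846) than to TFF1 (0.734) or TFF2 (0.665). CLDN18 was the most apart, from -0.44 with GPA33 to 0.31 with TFF1. These values describe 14 libraries that share 9 groups and 3 batches, and no test is given.

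Among 12039 other protein-coding genes that reached 10 TPM in a library, the enterocyte gene SLC26A3 (r = 0.975) was among the 3 most like MUC13. TFF1 was most like the lysozyme gene LYZ (0.957) and GUCA2B (0.952), the uroguanylin gene. TFF2 was most like TMPRSS4 (0.950), and TFF3 most like TNFAIP3 (0.962). CEACAM1 was most like TM4SF5 (0.989), GPA33 like ADGRD1 (0.986), LGALS4 like OTC (0.949) and VIL1 like F2 (0.987), the prothrombin gene of the liver. CDX2 was most like GSN (0.969) and CLDN18 like the gastric gene ANXA10 (0.953). Each is among the highest of many values over the same 14 libraries.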

How the data were processed

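Total RNA of 14 samples was sequenced by the authors, who aligned the reads to GRCh38 with HISAT2 2.1.0, assembled transcripts with StringTie and used DESeq2 for their own tests. The deposited values are TPM per Ensembl gene, which the authors made by summing transcripts; the annotation release and use of strand are not given in the sources used here. TPM are no counts, so no count test was used. Symbols came from GENCODE 44 (60370 of 60624 identifiers matched) and promoter sequences from RefSeq (GRCh38.p14, 6 of 10 genes matched).

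Groups followed the sample titles. Genes that reached 1 TPM in 2 or more libraries of a fit were taken as log2(TPM + 1) and fitted with limma 3.58.1 in R 4.3.3 (eBayes with trend, two-sided) within 1 batch. Both ePP group means were averaged in the comparison with ePP-β. Genes were called at a Benjamini-Hochberg adjusted p under 0.05 over all genes with a log2 difference beyond 1. The 10 genes and the gene lists were chosen with earlier results of these data known. Of each list the text may name the up to 4 fitted genes with the highest mean TPM and the up to 3 called genes per direction with the largest difference, and for each of the 10 genes the up to 3 genes most like it. The code was tested on simulated data. Pseudocount, filter, scaling, threshold, replicate block and single libraries were varied. A few genes are not reported here.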

Additional observations from a re-analysis of the deposited data

How the results depend on the processing

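Between DMSO and I-BET151, 1 of the other gut genes was called lower as reported. The count was 0 with a pseudocount of 0.1, 0 with no filter, 3 with a filter of 5 TPM, 6 with median centring, 6 with quantile normalization and 5 with TPM rescaled without ribosomal protein genes and mitochondrial pseudogenes. Leaving out each library in turn gave 10 to 34. The replicate block gave 37 of 48, and moved the calls over all 16687 genes from 1 higher and 34 lower to 828 and 1466. The numbers of the titles were not taken to pair the libraries, since no label ties them to a shared culture and there are only 2 pairs. The differences between replicates 2 and 1 correlated across genes at 0.675 for DMSO and I-BET151 and between -0.0093 and 0.044 for the other groups. In ePP-β against ePP, 35 genes were called higher as reported, and 20 to 36 when a library was left out. The lowest counts, 20 and 21, came without an ePP-β library, where 34 rather than 50 genes were fitted. The log2 difference of CDX2 in I-BET151 ranged from -1.0 without DMSO replicate 2 to 0.18 without DMSO replicate 1. Between the passages CEACAM1 turned to -0.055 with median centring and -0.11 with quantile normalization, and CDX2 to -0.20, -0.054 and, rescaled, -0.038. The count of gut genes called lower in I-BET151 thus moved by over 1.5 times in 11 of 12 alternatives, and that called higher in ePP-β in 2 of 14. The count called lower in ePP-β, 4 as reported, stayed within 1.5 times in all 14. Other causes of these changes were not tested. With 2 libraries per group and depth unknown, small differences and genes near 0 are beyond these data.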

Other observations

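DMSO and ePP-β differ in batch, culture and cell type, so their values are set side by side with no test. Of 26 absorptive cell genes 25 reached 1 TPM in both DMSO libraries and 25 in both ePP-β libraries, and 24 did so in all 4. The genes named next were chosen after their values were seen. GPA33 was at 40.6 and 39.6 TPM in DMSO against 0.0190 and 0.0194 TPM in ePP-β. MEP1B was at 0.0170 and 0.0190 TPM in DMSO against 79.3 and 135 TPM in ePP-β. The gastric gene PSCA was at 0.652 and 0.685 TPM in DMSO against 30.3 and 36.5 TPM in ePP-β, and PIGR at 5.73 and 8.08 TPM against 49.5 and 50.5 TPM. LGALS14 was at 136 and 347 TPM in DMSO and 0.645 and 0.748 TPM in ePP-β, with a listed 0 in all 4 ePP libraries. TSPAN8 and CDH17, in contrast, were above 60 TPM in both groups. TSPAN8 was at 490 and 595 TPM in DMSO against 81.5 and 90.2 TPM in ePP-β, and CDH17 at 415 and 443 TPM against 65.5 and 71.5 TPM.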
